A study of Mus musculus with 2 samples.

Results

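Smooth muscle contractile proteins and intermediate filaments are the proteins by which activated hepatic stellate cells and myofibroblasts are recognised in fibrotic liver. The 10 genes described here are Acta2, Actg2, Tagln, Cnn1, Myh11, Myl9, Tpm1, Tpm2, Des and Vim. They were taken from a list of names, drawn up with earlier results of these data known, and all 10 had an entry among the 38320 gene entries of each library. The libraries came from adult male C57/Bl6 mice that had received carbon tetrachloride (CCl4), a hepatotoxin, for 5 weeks. The control library was from Foxf1 fl/fl mice, which are homozygous for a floxed Foxf1 allele and carry no Cre. The knockout library was from αSMACreER;Foxf1 fl/fl littermates, which are homozygous for the same floxed allele. These also carry a tamoxifen-inducible Cre recombinase driven by the αSMA (Acta2) promoter. Foxf1, a forkhead transcription factor gene, is thus deleted only in cells that use that promoter. Tamoxifen was given from the second week of injury to activate Cre. Whether the mice of the control library also received it is not given in the sources used here, and if they did not, tamoxifen and genotype cannot be told apart. Liver cell suspensions were plated for 2 h, adherent cells were kept, and the RNA of several samples was pooled into 1 library per genotype. There was thus no replicate, no difference below has a test, and differences between animals cannot be told apart from differences between genotypes. Foxf1 was not analysed here, so the deletion was not checked in these values.

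In a contractile cell, actin filaments and myosin filaments slide past each other. Myosin is switched on by phosphorylation of its light chain, tropomyosins lie along the actin filament, and calponin and transgelin bind it. Intermediate filaments such as desmin and vimentin form a separate network that bears mechanical load. In quiescent mouse liver, desmin marks stellate cells, whereas αSMA appears in them upon activation and is also present in vascular smooth muscle.

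Values are FPKM, fragments per kilobase of transcript at a common sequencing depth, so levels of different genes can be set side by side. The depth was estimated from the spacing of low values as about 9848645 reads in the control and 11195509 in the knockout. It is rough, since only 59.7% and 50.1% of low values came within 0.1 read of a whole number. Each 95% interval below follows from that depth and covers counting error only. Fold changes are knockout over control on the log2(FPKM + 0.1) scale, after division of the knockout values by 1.02, the median ratio of all genes, and were given where the mean FPKM was at least 1.

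The adherent cells were labelled stromal, and stromal genes were present, beside higher summed levels of macrophage and hepatocyte markers. The 8 macrophage markers summed to an FPKM of 7423 in the control and 6489 in the knockout, and the 8 hepatocyte markers to 3232 and 1213. The 18 stromal identity genes summed to 586 and 839, near the 647 and 640 of the 8 endothelial markers, and were led by matrix genes such as Dcn, Bgn, Col3a1 and Col1a2. Col3a1 had an FPKM of 115 and 164 and Col1a2 had 102 and 151. Pdgfrb, a receptor of stellate cells and pericytes, had an FPKM of 1.03 and 1.43. Of the genes that define quiescent stellate cells, Lrat, which esterifies vitamin A, had 0.0778 and 0.111, from an estimated 3.9 and 6.4 reads. Gfap, an intermediate filament gene, was listed at 0 in both libraries. Of the 5 stromal identity genes below the minimum, Lrat and Cspg4 were listed higher in the knockout, and Reln, Ngfr and Colec10 lower. Reln, with the most reads of the 5, had 0.683 and 0.313, from an estimated 77 and 40 reads. In such bulk RNA, fewer cells of a type and less RNA per cell cannot be told apart.

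Levels ran from 0 to 1837 in the control and from 0.0524 to 1996 in the knockout. In the control, the order from high to low was Vim, Tpm1, Tpm2, Acta2, Tagln, Myl9, Des, Cnn1, Myh11 and Actg2. The counting intervals of Acta2 and Tagln overlapped in each library, as did those of Myl9 and Des, and the order within each pair was not tested. In the knockout, the first 5 genes held the same places, Des was listed above Myl9, and Actg2 was listed above Cnn1 and Myh11. In both libraries Vim stood far above the rest, with 94.6% of the summed FPKM of the 10 genes in the control and 95.2% in the knockout. The 3 lowest genes, Cnn1, Myh11 and Actg2, were below the minimum for a fold change, which left 7 of 10.

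**Figure D1:**
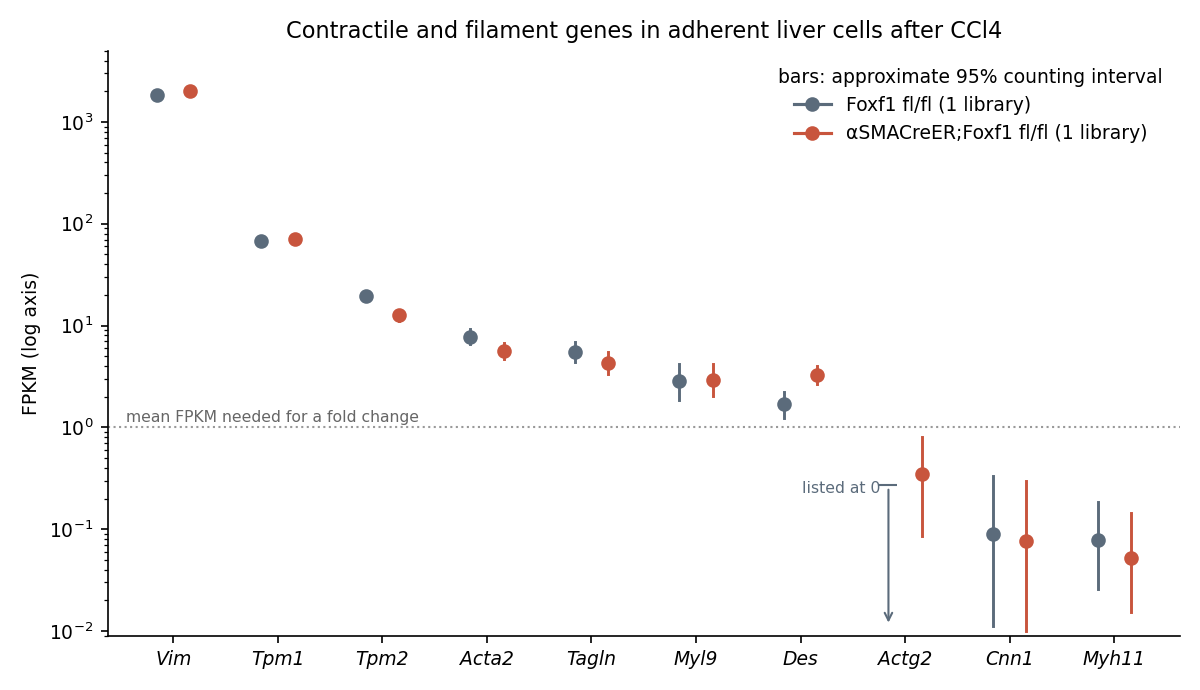
FPKM (log axis) of the 10 genes in the Foxf1 fl/fl library (grey) and the αSMACreER;Foxf1 fl/fl library (red), with approximate 95% counting intervals as bars. Vim lies near 1837 and 1996, Tpm2 and Acta2 are lower in the knockout and Des is higher, and Cnn1, Myh11 and Actg2 lie under the dotted line at a mean FPKM of 1, with Actg2 listed at 0 in the control (arrow from the limit of 0.269 that a count of 0 allows).

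Of the 7 genes with a fold change, 1 was at least 1.5-fold higher in the knockout (Des) and 1 was at least 1.5-fold lower (Tpm2), while the other 5 lay within 1.5-fold. Among all 12861 genes that passed the same minimum, 12.9% were at least 1.5-fold higher, 13.2% were at least 1.5-fold lower, and 26.1% were past it either way. The 7 genes therefore held calls at 14.3% in each direction and 28.6% together, close to the share of all genes. Their median log2 fold change was 0.02, against 0.01 for all genes. Log2 fold changes were positive for 4 of the 7 and negative for 3. The genes are taken by role below.

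**Figure D2:**
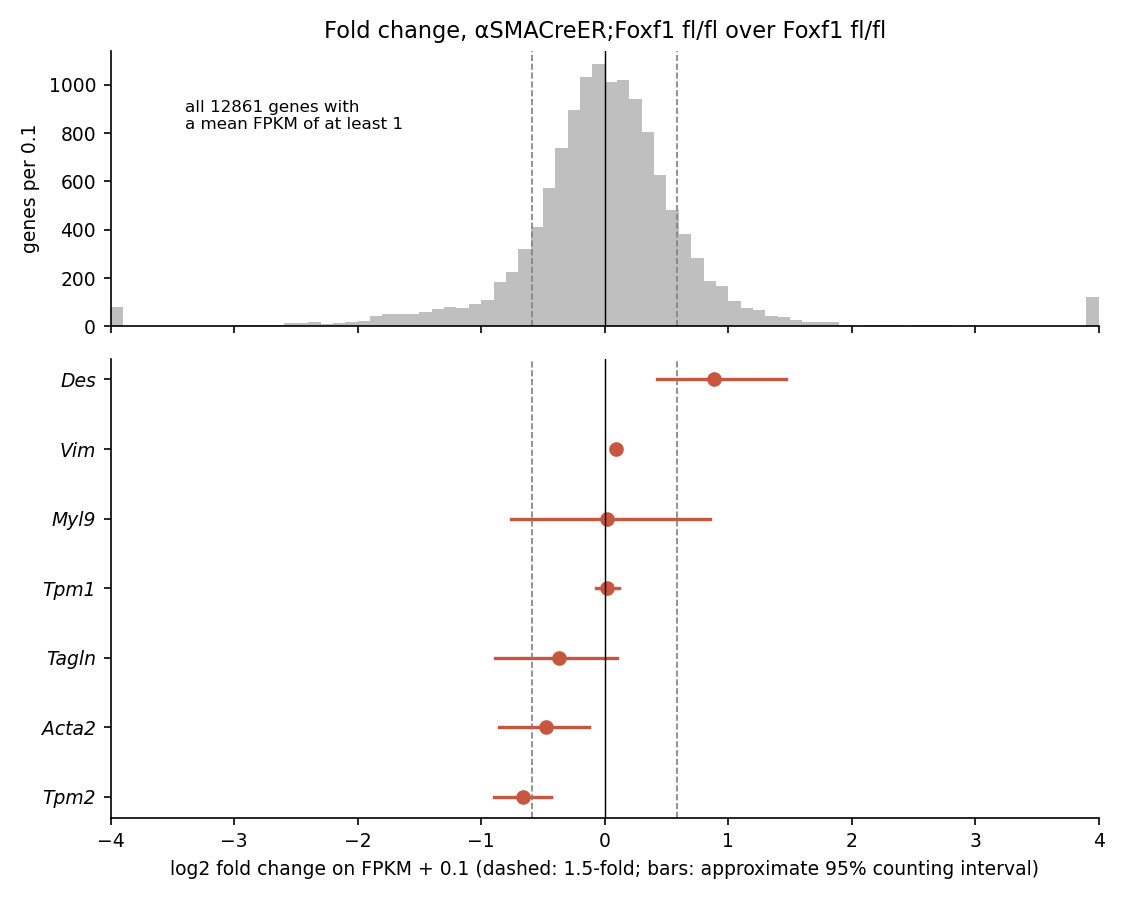
Upper panel, number of genes per 0.1 of log2 fold change for all 12861 genes past the minimum, with genes past 4 placed in the end bars. Lower panel, log2 fold change of the 7 contractile and filament genes with approximate 95% counting intervals (dashed lines, 1.5-fold). Des, at 0.89, and Tpm2, at −0.66, lie on opposite sides of the centre, and Vim, Tpm1 and Myl9 lie near 0.

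Acta2 encodes α-smooth muscle actin, the actin of smooth muscle and of myofibroblast stress fibres (ENSMUSG00000035783, chromosome 19, 34241090 to 34255336, minus strand, mm10). Its FPKM was 7.77 (6.56 to 9.20) in the control and 5.65 (4.66 to 6.77) in the knockout, from an estimated 141 and 116 reads. The knockout value was lower, and the 2 intervals overlapped slightly. The log2 fold change was −0.48 (−0.86 to −0.13), a 1.39-fold difference that did not reach 1.5-fold, and 16.8% of all genes had a lower one. Genes with transcripts as long as that of Acta2 had a median of −0.21, and relative to them the log2 fold change of Acta2 was −0.27.

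Actg2 encodes γ-smooth muscle actin, the actin of enteric smooth muscle (ENSMUSG00000059430, chromosome 6, 83512905 to 83536265, minus strand). It was listed at 0 in the control, and a count of 0 allows an FPKM of up to 0.269. The knockout had 0.350 (0.0858 to 0.807), from an estimated 4.4 reads. The intervals of the libraries overlapped, so a difference was not detectable at this depth.

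Acta2 and Actg2 are close relatives, and the sequences below show how far a single read could separate them. Their coding sequences were identical at 84.4% of 1131 aligned bases. No 75-base stretch of either gene's annotated transcripts, the length of a read, also occurred in the other. The stretch of 75 coding bases within 1 exon in which they were most alike lay in exon 8 of 9 in both genes and is given here on the sense strand, 5′ to 3′, from GENCODE M21 transcripts of GRCm38, with capitals at the 5 bases that differ.
Acta2, chr19:34243317-34243391, minus strand: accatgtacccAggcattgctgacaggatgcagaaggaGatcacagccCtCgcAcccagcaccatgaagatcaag
Actg2, chr6:83516268-83516342, minus strand: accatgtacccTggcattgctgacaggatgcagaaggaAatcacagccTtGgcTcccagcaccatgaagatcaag

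The non-muscle actins were far more abundant. Actb had an FPKM of 1398 and 1276, and Actg1 had 481 and 391. Acta2 and Actg2 together made up 0.412% of the summed actin FPKM in the control and 0.359% in the knockout. The ratio of Acta2 to Actb differed between the libraries by −0.33 on the log2 scale, with a counting interval of −0.68 to 0.03 that included no difference.

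Tagln encodes transgelin (SM22α), an actin-binding protein of smooth muscle (ENSMUSG00000032085, chromosome 9, 45929628 to 45936058, minus strand). Transgelin RNA was at an FPKM of 5.51 (4.36 to 6.92) in the control and 4.31 (3.32 to 5.44) in the knockout. The knockout value was lower and the intervals overlapped. The log2 fold change was −0.37, with an interval of −0.89 to 0.10 that included no difference. Genes with transcripts as long as that of Tagln had a median of −0.25, and relative to them Tagln was at −0.13. Tagln overlaps other genes on the opposite strand, and 53.3% of the 75-base stretches of its transcripts also occurred in one of them. Of its 1983 stretches, 1023 were shared with the antisense gene Gm48529, which was not analysed here, and 34 with Pcsk7, which had an FPKM of 7.98 and 7.68. Counting by strand was not stated, so reads of Tagln and of these partners cannot be told apart.

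A difference between the changes of Tagln and Acta2 was not detectable at this depth. The ratio of Tagln to Acta2 was 0.709 in the control and 0.763 in the knockout, a log2 difference of 0.11 (−0.49 to 0.70). Its non-muscle relative Tagln2 had an FPKM of 410 and 405, so that Tagln gave 1.33% and 1.05% of the summed transgelin FPKM.

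Cnn1 encodes calponin 1, which binds actin and restrains myosin in differentiated smooth muscle (ENSMUSG00000001349, chromosome 9, 22099281 to 22109630, plus strand). Its FPKM was 0.0904 (0.0113 to 0.336) and 0.0766 (0.00991 to 0.296), about 2 reads in each library. The relatives Cnn2 and Cnn3 together had 128 and 121. At this depth, a difference in Cnn1 was not detectable.

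Myh11 encodes the heavy chain of smooth muscle myosin, a marker of differentiated smooth muscle (ENSMUSG00000018830, chromosome 16, 14194527 to 14291408, minus strand). The FPKM of Myh11 was 0.0781 (0.0260 to 0.187) in the control and 0.0524 (0.0153 to 0.144) in the knockout, from an estimated 4.9 and 3.7 reads. Both values were at the limit of detection and their intervals overlapped. The non-muscle heavy chains Myh9, Myh10 and Myh14 summed to 44.7 and 56.1, which left Myh11 at 0.174% and 0.0932% of the heavy chains. The coding sequences of Myh11 and Myh9 were the same at 75.0% of aligned bases, and 77 of 5646 read-long windows differed at 2 bases or fewer. How many of the few reads of Myh11 came from Myh9 was not tested.

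Myl9 encodes the regulatory light chain of smooth muscle myosin, whose phosphorylation starts contraction (ENSMUSG00000067818, chromosome 2, 156775420 to 156781658, plus strand). The FPKM was 2.85 (1.86 to 4.16) in the control and 2.95 (2.03 to 4.23) in the knockout. The values were nearly equal, with a log2 fold change of 0.02, but the interval of −0.76 to 0.85 allowed a difference past 1.5-fold either way. Genes with transcripts of similar length had a median of −0.35, and relative to them Myl9 was at 0.37. Its non-muscle relatives Myl12a and Myl12b summed to 556 and 472, and Myl9 made up 0.510% and 0.620% of these light chains.

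Tpm1 and Tpm2 encode tropomyosins, which lie along actin filaments and control the access of myosin, and each also gives rise to non-muscle forms by alternative promoters and splicing, so that their gene values do not separate muscle from non-muscle forms. Tpm1 (ENSMUSG00000032366, chromosome 9, 67022590 to 67049406, minus strand) had an FPKM of 68.3 (65.1 to 71.5) in the control and 70.5 (67.5 to 73.6) in the knockout. The log2 fold change was 0.02 (−0.07 to 0.11), an interval that held any difference to well under 1.5-fold as far as counting error goes. Tpm2 (ENSMUSG00000028464, chromosome 4, 43514711 to 43523765, minus strand) had 19.6 (17.7 to 21.6) in the control and 12.6 (11.1 to 14.1) in the knockout. These intervals did not overlap.

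The log2 fold change of Tpm2 was −0.66 (−0.89 to −0.44), a 1.58-fold difference, and 11.1% of all genes had a lower one. The call at 1.5-fold was lost when the libraries were scaled to an equal FPKM sum, which gave −0.46, and when the trend with transcript length was removed, which gave −0.52. The ratio of Tpm2 to Tpm1 is not affected by a factor applied to a whole library. It was 0.287 in the control and 0.178 in the knockout, a 1.61-fold difference with a log2 interval of −0.93 to −0.45. Median log2 fold changes were −0.14 for genes as long as Tpm2 and −0.02 for genes as long as Tpm1. The interval of the ratio does not cover this trend. Tpm2 made up 3.85% of the summed FPKM of the 4 tropomyosin genes in the control and 2.33% in the knockout. The other tropomyosins, Tpm3 and Tpm4, had log2 fold changes of 0.11 and 0.04. The ratio of Tpm2 to Acta2 was 2.52 and 2.22, with a log2 difference of −0.18 (−0.60 to 0.24), so the extents to which Tpm2 and Acta2 were lower could not be separated at this depth.

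**Figure D3:**
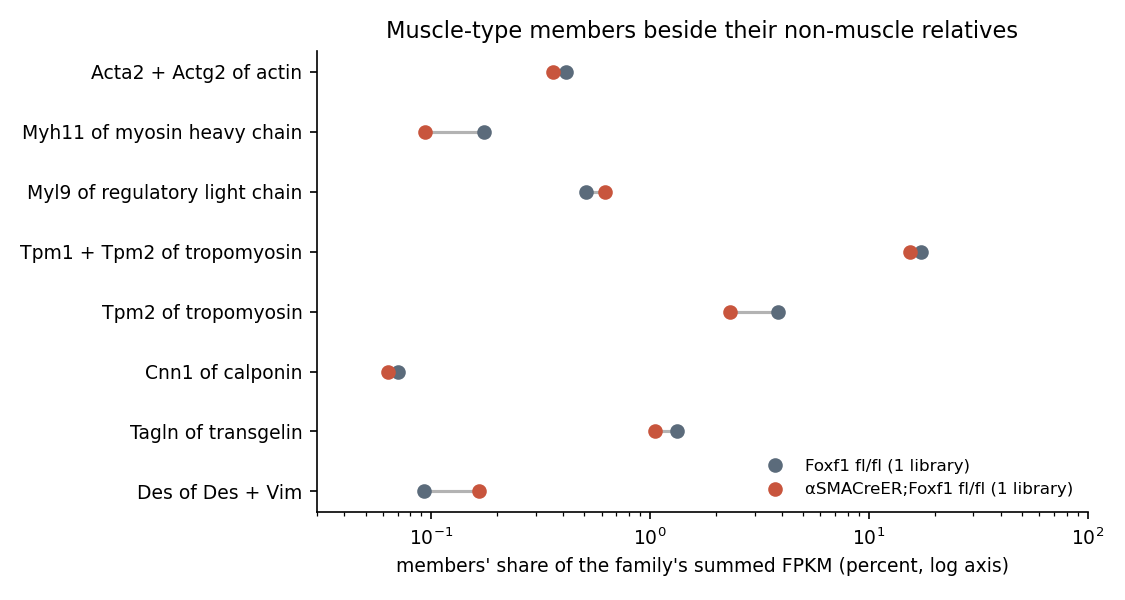
Share (percent, log axis) of the smooth muscle members in the summed FPKM of their family, in the Foxf1 fl/fl library (grey) and the αSMACreER;Foxf1 fl/fl library (red). Tpm2 went from 3.85% to 2.33% of tropomyosin and Des from 0.0926% to 0.165% of Des and Vim. Acta2 with Actg2 went from 0.412% to 0.359% of actin. The shares of Myh11 and Cnn1 rest on fewer than 5 reads in each library.

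Des encodes desmin, the muscle intermediate filament protein that marks stellate cells in rodent liver (ENSMUSG00000026208, chromosome 1, 75360329 to 75368579, plus strand). It had an FPKM of 1.70 (1.24 to 2.24) in the control and 3.29 (2.68 to 3.98) in the knockout, from an estimated 47 and 104 reads. The knockout was higher and the intervals did not overlap. The log2 fold change was 0.89 (0.43 to 1.46), a 1.85-fold difference, and 94.0% of all genes had a lower one. The estimated reads were placed on the longest transcript, which is the only Des transcript annotated as coding. With reads placed on the median transcript length instead, the interval was −0.24 to 2.04 and included no difference. The antisense gene Gm15179, which shares 3.94% of the 75-base stretches of Des, was listed at 0 in both libraries.

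Vim encodes vimentin, the intermediate filament protein of mesenchymal cells, which macrophages and endothelial cells also make (ENSMUSG00000026728, chromosome 2, 13573927 to 13582826, plus strand). It had an FPKM of 1837 (1820 to 1853) in the control and 1996 (1980 to 2012) in the knockout, which ranked it 48 in the control and 30 in the knockout among all genes. The log2 fold change was 0.09 (0.08 to 0.11), a 1.07-fold difference that was past counting error but far within 1.5-fold. Vim was 1079 times as abundant as Des in the control and 607 times in the knockout, and 236 and 353 times as abundant as Acta2.

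Des and Acta2 thus differed in opposite directions. The ratio of Des to Acta2 was 0.219 in the control and 0.582 in the knockout, a 2.66-fold difference with a log2 interval of 0.80 to 2.02. The ratio of Des to Tpm2 differed 3.02-fold (log2 interval 1.05 to 2.14). A factor applied to a whole library changes neither ratio. Removal of the length trend, which differs between genes, gave log2 fold changes of 0.91 for Des, −0.27 for Acta2 and −0.52 for Tpm2, with the same signs.

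The genes were next set beside the stromal identity genes, which were collagens, matrix proteins and receptors of fibroblasts and stellate cells. Of 18, 13 passed the minimum, 3 were at least 1.5-fold higher (Pdgfra, Hgf and Lox), none was lower, and their median log2 fold change was 0.53, beside 12.9% of all genes higher, 13.2% lower and a median of 0.01. The 3 had log2 fold changes of 0.82, 0.67 and 0.61. The median longest transcript of the 13 genes was 4741 bases, and the trend with transcript length was not removed from these values. Dcn, the matrix proteoglycan decorin, had an FPKM of 127 and 186, and Bgn, its relative biglycan, had 127 and 173. Col1a1, a chain of type I collagen, was at 70.2 in the control and 102.8 in the knockout, or 0.53 on the log2 scale (0.47 to 0.58).

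Per unit of Col1a1, Acta2, Tagln and Tpm2 were lower in the knockout, without adjustment for transcript length. The longest transcript of Col1a1 has 5930 bases, against 2035 for Acta2, 1595 for Tagln and 2175 for Tpm2. Median log2 fold changes were −0.35 for genes as long as Myl9 and −0.02 for genes as long as Des. The intervals of the ratios below do not cover this trend. The ratio of Acta2 to Col1a1 was 0.111 in the control and 0.0550 in the knockout, a 2.02-fold difference (log2 interval −1.37 to −0.65). The ratio of Tagln to Col1a1 was 0.0786 and 0.0420, with a log2 interval of −1.38 to −0.43. Tpm2 to Col1a1 was 0.279 and 0.122, with −1.42 to −0.96. Tpm1 and Vim were lower too, with log2 intervals of −0.61 to −0.40 and −0.49 to −0.37, and Myl9 had one of −1.26 to 0.25. Desmin stood apart in sign, since the ratio of Des to Col1a1 was 0.0243 and 0.0320, a log2 difference of 0.40 with an interval of −0.10 to 0.90 that included no difference. Pdgfrb gave the same directions, and against it Acta2 had a ratio of 7.58 and 3.95 (log2 interval −1.55 to −0.33) and Des 1.66 and 2.30 (−0.23 to 1.17).

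Scaling the libraries to the stromal identity genes, without adjustment for their transcript length, divided the knockout values by 1.47 and moved the median of all genes to −0.51. On that scale 3 of the 7 genes, Acta2, Tagln and Tpm2, were at least 1.5-fold lower and none was higher, beside 43.9% of all genes lower and 3.69% higher. Des was then at 0.38. Tpm1, Vim and Myl9 changed sign and were at −0.51, −0.43 and −0.49. An equal FPKM sum in both libraries, the opposite shift, put the median of all genes at 0.21 and gave 21.9% higher and 8.75% lower, with Des as the only call among the 7 genes, at 1.08. The sign of Des was positive, and those of Acta2, Tagln and Tpm2 were negative, under each scaling tried and with the length trend removed. For Tagln the value with the trend removed was −0.13, and the counting interval of the reported value included no difference.

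**Figure D4:**
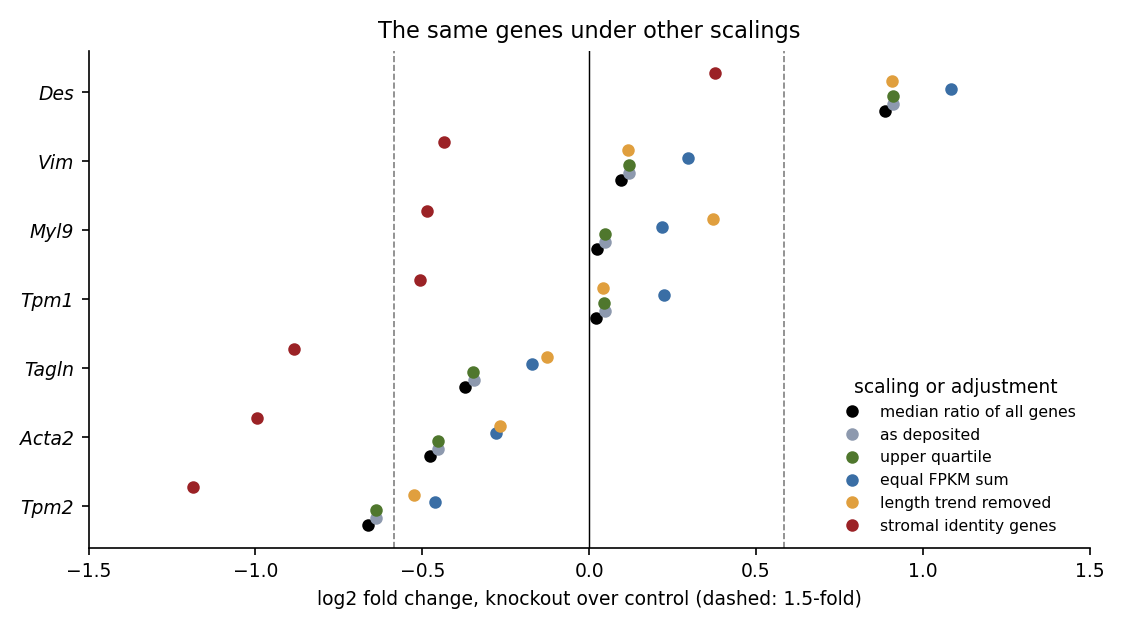
Log2 fold change of the 7 contractile and filament genes under 5 scalings of the libraries and with the length trend removed (colours; dashed lines, 1.5-fold). Des stays right of 0, from 0.38 to 1.08 over these scalings, Acta2, Tagln and Tpm2 stay left of it, and Vim, Myl9 and Tpm1 cross it with the stromal identity genes as reference.

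Of 12 further smooth muscle genes, 8 passed the minimum, 1 was at least 1.5-fold higher and none was lower, with a median log2 fold change of −0.16. Of all genes, 12.9% were higher, so 1 of 8 is near that share. The 1 was Cald1, encoding caldesmon, which is made in smooth muscle and non-muscle forms from the same gene, which stood at 18.99 and 31.0 FPKM, a log2 difference of 0.68 (0.56 to 0.80). Csrp1, a LIM protein of smooth muscle, had 139.8 and 106.9, and Pdlim7 had 43.6 and 41.6. Lmod1, the smooth muscle leiomodin, and Kcnmb1, a channel subunit of smooth muscle, were listed at 0 in the control and at an estimated read or less in the knockout.

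Of the 16 non-muscle actomyosin relatives, 15 passed. None of them was past 1.5-fold in either direction, beside 26.1% of all genes, and their median log2 fold change was −0.02. The highest were Actb and Myl6, the essential light chain shared by smooth and non-muscle myosin, at 758 and 585. Their FPKM ranged from 0.670 to 1398 in the control. They held the bulk of the actin, myosin and tropomyosin RNA, as the shares above show.

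Among 10 regulators of these genes, 9 passed, 2 were at least 1.5-fold higher and none was lower, with a median of 0.29, beside 12.9% of all genes higher and 13.2% lower. Srf, the transcription factor that drives contractile genes, had an FPKM of 12.4 and 10.4, and its cofactor Mrtfa had 31.3 and 39.0. Myocd, the cofactor of differentiated smooth muscle, was listed at 0 in both libraries. Rhoa, the GTPase that controls contraction, had 238 and 221. The 2 that were higher were Rock2, a kinase that promotes myosin light chain phosphorylation, at 7.33 and 11.48, and Ppp1r12a, the targeting subunit of myosin phosphatase, at 9.02 and 15.0, and their longest transcripts have 7644 and 5066 bases.

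Of 11 other intermediate filament genes, 9 passed, none was higher and 2 were lower, with a median of −0.01, beside 13.2% of all genes lower. The 2 were the keratins Krt8, with an FPKM of 130.2 and 75.1, and Krt18, with 103.3 and 51.6, which form the filaments of hepatocytes. They lay beside the hepatocyte markers, of which all 8 were at least 1.5-fold lower, with Alb, encoding albumin, at 2292 and 912, and Ttr, encoding transthyretin, at 322 and 86.8. Lmna, a nuclear lamin, had 106.0 and 107.4.

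**Figure D5:**
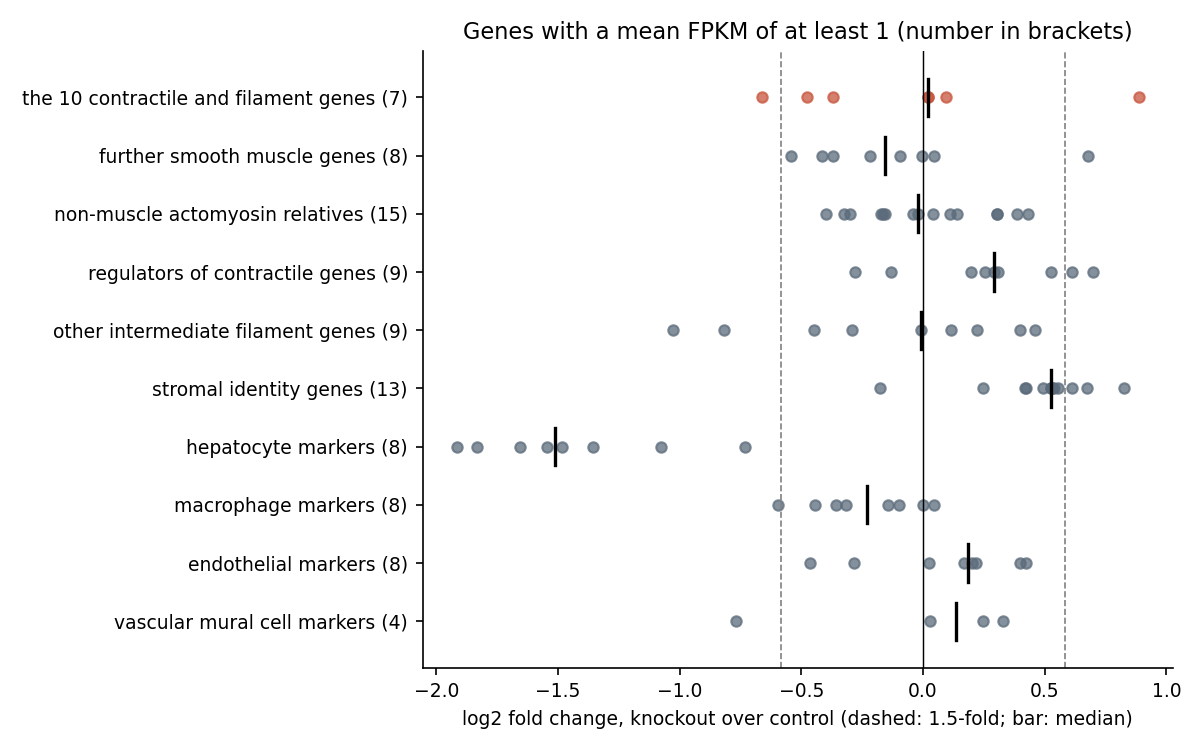
Log2 fold change, knockout over control, of each gene past the minimum, by list (points, with the number of genes in brackets; bar, median; dashed lines, 1.5-fold). The contractile and filament genes (red) spread from −0.66 to 0.89 around a median of 0.02, the stromal identity genes lie mostly right of 0 with a median of 0.53, and the hepatocyte markers all lie left of the lower 1.5-fold line.

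Markers of other cells that make contractile proteins were also read. Of 6 markers of vascular smooth muscle and pericytes, 4 passed, none was higher and 1 was lower (13.2% of all genes were lower). Log2 fold changes were positive for 3 of the 4 and negative for 1, with a median of 0.14. The 1 was Kcnj8, a potassium channel of pericytes, at 18.9 and 11.2, a log2 fold change of −0.77. The 6 markers summed to an FPKM of 33.4 in the control, where Kcnj8 was the largest value, and 28.7 in the knockout. Notch3, which defines vascular smooth muscle, had 0.0586 and 0.169, from an estimated 4.5 and 14.8 reads, below the minimum for a fold change. Rgs5, a pericyte gene, had 0.971 and 1.27. Of 4 mesothelial markers, none was past 1.5-fold, beside 26.1% of all genes past it either way. Msln, encoding mesothelin, had 11.4 and 13.1 and Upk3b 13.1 and 14.2. What part of Acta2, Tagln or Tpm2 came from mural cells was not tested.

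Of the macrophage markers, 1 of 8 was at least 1.5-fold lower, Clec4f, a lectin of Kupffer cells, at 1117 and 753, and the median of the 8 was −0.23, again beside 13.2% of all genes lower. Adgre1, which encodes F4/80, had 162 and 165, and Cd68 had 646 and 679. Of 8 endothelial markers, none was past 1.5-fold, beside 26.1% of all genes past it either way. Their sum was 647 and 640, and Pecam1 and Stab2 had 93.3 and 96.6 and 64.0 and 85.9. The 5 cholangiocyte markers and the 5 platelet and lymphocyte markers had none past 1.5-fold, beside the same 26.1% of all genes. Krt19 and Krt7 had 39.7 and 29.5 and 4.91 and 6.91, and Pf4 and Itga2b had 64.5 and 51.4 and 8.25 and 7.67. The part of these cells in the level of Vim, Tpm1 or the other genes was not tested.

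Promoters were searched for the CArG box, the element bound by SRF, because Cre was driven by the Acta2 promoter and CArG boxes are known in contractile genes. RefSeq gave a promoter of 300 bases, 250 before to 50 after the start, for 7 of the 10 genes (Acta2, Cnn1, Myl9, Tpm1, Tpm2, Des and Vim). An exact box was found in 1 of them, Myl9, and in 1.63% of all 32851 promoters. When 1 other base was allowed, a search added after the exact one had been seen, a match was found in 3 of the 7 (Acta2, Myl9 and Tpm1) and in 21.1% of all promoters. The matches, with 10 bases on either side, are given on the sense strand, 5′ to 3′, from RefSeq on GRCm38.p6, with the match in capitals.
Acta2, 84 bases before the start, chr19:34255438-34255467, minus strand: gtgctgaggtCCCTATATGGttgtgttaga
Acta2, 34 bases before the start, chr19:34255388-34255417, minus strand: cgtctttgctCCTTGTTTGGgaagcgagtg
Myl9, 161 bases before the start (exact), chr2:156775293-156775322, plus strand: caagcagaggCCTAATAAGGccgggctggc
Myl9, 99 bases before the start, chr2:156775355-156775384, plus strand: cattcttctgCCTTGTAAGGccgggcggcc
Tpm1, 221 bases before the start, chr9:67049415-67049444, minus strand: gctcgggtccCCATATATAGtcatatccac
Tpm1, 80 bases before the start, chr9:67049274-67049303, minus strand: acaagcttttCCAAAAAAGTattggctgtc

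The 3 genes with a match had log2 fold changes of −0.48, 0.02 and 0.02, and those without one among the 7 promoters included Tpm2, at −0.66, and Des, at 0.89. The forkhead core TGTTTAC, searched on both strands, was in none of the 7 windows and in 3.65% of all promoters. A match in a window is a run of letters and not a bound site, and its absence says only that these letters are not in the window.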

How the data were processed

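The authors made the libraries with the TruSeq RNA kit, sequenced them on an Illumina HiSeq instrument as single-end 75-base reads, aligned them with TopHat (mm10, per the submitters' processing notes) and deposited the FPKM that Cufflinks gave each Ensembl gene. Their fold changes came from another quantification with DESeq normalization and were not used. Whether counting used strand is not given in the sources used here. Symbols came from GENCODE M21 for 36490 of 38320 entries, and the entry with the highest FPKM was kept for a symbol. Libraries were scaled by the median ratio of 12011 genes at 1 FPKM or more in each library, a pseudocount of 0.1 was added, and a 1.5-fold threshold was taken from the study's methods. FPKM is not a count and each genotype had 1 library, so no count test was run. Reads were estimated with an assumed fragment length of 200 bases on the longest transcript. Intervals of a fold change are exact binomial, those of a level are exact Poisson, and those of a ratio of genes add the counting variances. The limit for a value of 0 is 3 counts. The genes and lists were chosen with earlier results of these data known. All 10 genes were named, and of each other list the 2 highest and the largest rise and fall past 1.5-fold among genes with a fold change, or the first 2 of a cell type list. Lrat, Pdgfrb, Gfap, Col1a1, Srf and Myocd were named as defining genes, and the non-muscle relatives to give the share of each family. Hgf, Lox, Col3a1, Col1a2, Cspg4, Reln, Ngfr, Colec10, Rock2, Krt8, Kcnj8, Clec4f, Lmod1 and Kcnmb1 were named after their values were seen. The steps were tested on simulated data. Calculations used Python 3.11.15, numpy 2.4.6, scipy 1.17.1 and matplotlib 3.10.9.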

Additional observations from a re-analysis of the deposited data

How the results depend on the processing

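Of 56 values of the 7 genes under 8 alternatives each, 46 stayed within the counting interval of the reported value and 10 lay past it. No gene past 1.5-fold changed sign. Summing the entries of a symbol, 1 of the 8, left the values of the 7 genes unchanged. Vim, with the narrowest interval, gave 5 of the 10, while Tagln and Myl9, with wide ones, gave none. The tally thus depends on the width of the intervals. The number of genes at least 1.5-fold higher (1 as reported) was 0 with the stromal identity genes as reference, with a threshold of 2-fold or a minimum of 5 FPKM, and 2 with no minimum, which added Actg2. The number lower (1) was 0 for libraries of equal FPKM sum, with the length trend removed or at 2-fold, and 3 with the stromal reference. The median of the genes (0.02) was 0.22 at equal FPKM sums and −0.51 with the stromal reference. Of all genes, 21.9% were higher and 8.75% lower with an equal FPKM sum, 4.52% and 6.22% were past 2-fold, 8.09% were higher with a minimum of 5 FPKM, and 8.63% were lower with no minimum. The stromal reference gave 3.69% and 43.9%. No paired analysis was possible because there was a single pooled library on either side, and none could be left out. The depth limits Cnn1, Myh11 and Actg2, at under 5 reads each, and Myl9, at 26 and 31. The comparison of proteins between relatives was not run.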
